A study of Mus musculus with 206 samples.

Results

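The 10 genes described here are Il12a, Bcl6, Irf2bpl, Cd81, Mgll, Slc27a1, Sort1, Sbf1, Psd3 and Olfml2b. They were named by the study for hypothalamic neurons of mice that had received morphine around birth and lipopolysaccharide (LPS) as adults, in the comparison of MOR-LPS with SAL-LPS mice. That hypothalamus comparison chose the genes, so their values in it are given as a description with no test. The measurement was H3K27ac, a histone acetylation found at active promoters and enhancers. Nuclei positive for NeuN, a neuronal nuclear protein, were sorted and profiled by MOWChIP-seq, a microfluidic chromatin immunoprecipitation for small samples. A consensus region was assigned to a gene if it lay in the gene body, or if that gene held the nearest protein-coding transcription start site (TSS) within 100 kb on mm10. This gave 226 member regions of 108274 regions in 4 brain regions. There were 36 of 13788 regions in the hypothalamus, 51 of 16201 in the hippocampus, 95 of 60013 in the striatum and 44 of 18272 in the prefrontal cortex (PFC).

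All mice were C57BL/6NTac. Dams of MOR mice carried osmotic pumps that delivered morphine sulfate at 10 mg/kg/day, the pups were moved to surrogate dams that had received no drug, and injections of 10 mg/kg followed from postnatal day 1 to 14. SAL mice received saline on the same schedule. As adults the mice were given LPS or saline and brain tissue was taken 2 h later, which made the groups MOR-LPS, SAL-LPS, MOR-SAL and SAL-SAL. In that order the libraries used numbered 10, 11, 12 and 8 in the hypothalamus, 10, 12, 11 and 11 in the hippocampus, 15, 13, 7 and 10 in the striatum, and 14, 11, 9 and 8 in PFC. In the hypothalamus these were 6 females and 4 males, 6 and 5, 4 and 8, and 6 and 2. Each library was 1 animal, many animals gave libraries of several brain regions, and the animals of a group came from 5 to 9 litters. No litter gave both MOR and SAL mice. In tissue punches of this kind, fewer acetylated cells and less acetylation per cell cannot be told apart.

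The 10 genes have several roles. Il12a encodes the p35 subunit that interleukin 12 shares with interleukin 35, and in macrophages and dendritic cells its transcription follows Toll-like receptor and NF-kappaB signals such as those set off by LPS. BCL6 is a transcriptional repressor, IRF2BPL a nuclear protein related to partners of the interferon regulatory factor IRF2, and CD81 a tetraspanin of the plasma membrane. MGLL, monoacylglycerol lipase, breaks down the endocannabinoid 2-arachidonoylglycerol, and SLC27A1 moves long-chain fatty acids into cells. SORT1 (sortilin) sorts proteins between the Golgi and endosomes, SBF1 is a myotubularin-related protein without phosphatase activity, and PSD3 is an exchange factor for the small GTPase ARF6. OLFML2B is a secreted protein with an olfactomedin domain. The hypothalamus joins neural control of feeding, temperature and the hormonal response to infection.

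The deposited lists hold peaks and no read counts, so each region was given a rank from 0 to 100 within each library, by the highest −log10 p of the peaks that overlapped it. A difference of 1 point is 1% of the regions of that brain region. Regions with no peak in a library share that library's lowest rank, which was 3.32 to 33.8 over the hypothalamus libraries and 13.3 to 44.8 over the striatum libraries. A group median inside these ranges can be a rank without a peak, and is then no measured level. The libraries used held 10811 to 143527 peaks. The 10 neuron marker promoters had a peak among the strongest 10000 in 0 (Syp) to 38 (Map2) of 41 hypothalamus libraries and in 1 (Syp and Stmn2) to 44 (Map2) of 45 striatum libraries, and Rbfox3, the gene of NeuN, in 18 and 24. The 7 microglia and 6 endothelial marker promoters had such a peak in 0 hypothalamus and 0 striatum libraries. Of the 8 astrocyte marker promoters, Aqp4, Gfap, Aldh1l1, Gja1 and Sox9 had one in none of these libraries, and Slc1a2, Aldoc and Slc1a3 in 14, 10 and 2 hypothalamus and 6, 2 and 2 striatum libraries. Of the 174 lists, 2 from the hippocampus were identical and were counted as 1 library, and 1 of 4371 peaks from PFC was left out. A PFC library labelled MOR-LPS carries peak names of another animal of its group, and without it 0 PFC member regions were called in every comparison.

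Promoter sequences of 8 members, 13 in all, were matched in RefSeq (GRCm38.p6), each 300 bases around a start. Sort1 and Psd3 were not matched. The 13 promoters had a median of 65.7% G and C and 23 CpG, against 52.7% and 7 over all 32851 promoters. The GC box (GGGCGG, searched on both strands), the letters bound by SP1, was in 10 of the 13 promoters, and in 35.7% of all promoters. The core letters of the gamma-activated site (TTCNNNGAA, the same on both strands), bound by STAT factors, were in promoters of Bcl6 alone and in 8.30% of all promoters. The kappaB letters GGGANTTTC, searched on both strands, were in 0 of the 13 and in 1.11% of all. The cyclic AMP response element TGACGTCA was in the Irf2bpl promoter and in 1.79% of all. No motif searched shared letters with another in a printed sequence. The sequences below are those of the regions on which the results turn, 5′ to 3′ on the strand of the gene, with motif matches in capitals. Il12a has 2 of them, its promoter (chr3:68691174-68691473, + strand) and the 300 bases of its upstream region that held the most peak summits, 13 of 34 (chr3:68660684-68660983, + strand), with no match to any of the motifs.
Il12a promoter: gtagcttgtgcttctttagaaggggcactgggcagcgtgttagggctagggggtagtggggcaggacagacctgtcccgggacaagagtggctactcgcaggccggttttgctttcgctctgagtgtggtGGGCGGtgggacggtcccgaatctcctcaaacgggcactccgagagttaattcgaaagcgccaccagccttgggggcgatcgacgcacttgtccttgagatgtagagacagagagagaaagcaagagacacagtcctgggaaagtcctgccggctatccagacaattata
Il12a upstream: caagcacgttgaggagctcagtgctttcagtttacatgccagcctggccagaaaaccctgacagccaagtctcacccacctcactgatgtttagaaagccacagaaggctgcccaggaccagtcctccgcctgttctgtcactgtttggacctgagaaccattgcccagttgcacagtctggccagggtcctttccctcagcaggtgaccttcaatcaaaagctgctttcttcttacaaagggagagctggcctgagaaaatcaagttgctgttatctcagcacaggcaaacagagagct
For Slc27a1 (chr8:71570344-71570643, + strand), Sbf1 (chr15:89315262-89315561, − strand) and Olfml2b (chr1:170644282-170644581, + strand), the hypothalamus region of largest difference spans the printed promoter. Each region is wider than the 300 bases, so its peaks need not lie on them. Other matched Slc27a1 promoters overlap the same region (chr8:71568621-71568920 and chr8:71569347-71569646). They are not printed, and they hold fewer GC boxes than the printed promoter. Sbf1 has 4 GC boxes in its 300 bases, and 5.49% of all promoters have 4 or more.
Slc27a1: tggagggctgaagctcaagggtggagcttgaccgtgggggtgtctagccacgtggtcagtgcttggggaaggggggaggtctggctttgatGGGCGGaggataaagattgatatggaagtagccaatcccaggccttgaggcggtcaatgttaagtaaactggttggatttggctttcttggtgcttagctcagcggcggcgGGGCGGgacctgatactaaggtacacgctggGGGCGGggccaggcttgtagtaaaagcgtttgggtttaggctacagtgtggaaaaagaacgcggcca
Sbf1: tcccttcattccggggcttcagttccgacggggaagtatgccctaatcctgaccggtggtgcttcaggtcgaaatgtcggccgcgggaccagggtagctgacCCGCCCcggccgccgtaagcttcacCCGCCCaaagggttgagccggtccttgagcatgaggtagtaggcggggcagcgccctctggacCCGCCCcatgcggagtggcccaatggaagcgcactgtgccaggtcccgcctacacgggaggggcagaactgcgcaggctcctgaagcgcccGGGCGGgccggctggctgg
Olfml2b: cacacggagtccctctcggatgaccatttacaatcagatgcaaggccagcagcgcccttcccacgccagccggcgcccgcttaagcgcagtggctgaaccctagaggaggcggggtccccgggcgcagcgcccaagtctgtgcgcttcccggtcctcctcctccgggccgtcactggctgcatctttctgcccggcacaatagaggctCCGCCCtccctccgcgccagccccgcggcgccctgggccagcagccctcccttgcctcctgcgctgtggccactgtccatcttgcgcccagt
A second start of Bcl6 (chr16:23981234-23981533, − strand) lies inside the intron region described below and holds the STAT letters 3 times, and 0.0335% of all promoters hold them 3 or more times.
Bcl6 internal start: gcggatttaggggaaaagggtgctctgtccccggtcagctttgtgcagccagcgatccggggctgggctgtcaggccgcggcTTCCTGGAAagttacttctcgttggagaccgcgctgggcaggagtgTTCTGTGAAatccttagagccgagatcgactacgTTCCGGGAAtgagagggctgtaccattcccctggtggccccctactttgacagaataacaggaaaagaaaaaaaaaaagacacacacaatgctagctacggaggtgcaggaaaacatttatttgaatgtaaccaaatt

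In the hypothalamus 26 of the 36 member regions were higher in MOR-LPS than in SAL-LPS mice and 10 were lower. The median difference was 5.02 points over the members and −0.34 over all regions, and the members ranged from −25.4 to 40.7 points. Of the member regions 12 (33.3%) differed by at least 20 points, as did 21.2% of all regions. Of the 10 member promoter regions 10 were higher, with a median of 13.0 points. Over all 4601 promoter regions 59.1% were higher, with a median of 3.27. Over the regions away from promoters 44.3% were higher, with a median of −2.56. The members' values chose the genes and support nothing further. MOR-LPS libraries held 28052 to 135368 peaks with a median of 70449.5, against 28710 to 74871 with a median of 48152 in SAL-LPS libraries. The share of the 10 neuron marker promoters with a peak was 10 to 80% in MOR-LPS (median 40%), against 20 to 90% in SAL-LPS libraries (median 60%), also with its part not tested.

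The upstream region of Il12a (chr3:68658932-68665461, 25183 bp from the TSS) ranked 27.6 to 95.4 with a median of 61.1 in MOR-LPS hypothalamus, against 9.95 to 42.1 with a median of 16.6 in SAL-LPS hypothalamus. A peak lay on it in 9 of 10 MOR-LPS and 5 of 11 SAL-LPS libraries. The groups overlapped between 27.6 and 42.1, and 6 MOR-LPS libraries were above the highest SAL-LPS library. The MOR-SAL ranks were 6.53 to 79.7 with a median of 19.3, against 6.79 to 88.7 with a median of 25.2 in SAL-SAL. In SAL-SAL the 3 libraries with a peak were above 60 and the other 5 had none. The Il12a promoter region (chr3:68691135-68694881) ranked 8.68 to 98.6 with a median of 62.7 in MOR-LPS and 6.15 to 88.7 with a median of 21.1 in SAL-LPS. In the saline-challenged mice its ranks were 5.73 to 94.8 with a median of 31.6 in MOR-SAL and 33.8 to 90.6 with a median of 47.4 in SAL-SAL. At this promoter SAL-LPS was 24.3 points below SAL-SAL, and MOR-LPS was 22.4 points above MOR-SAL. The difference of the MOR-LPS and SAL-LPS means less that of MOR-SAL and SAL-SAL was 46.6 points at the promoter and 46.5 at the upstream region, the highest of the 36 regions.

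Among the nuclear regulators, Bcl6 has a promoter region and an intron region in the hypothalamus. The intron region (chr16:23980150-23985464, 3388 bp from the nearest Bcl6 start annotated in GENCODE) ranked 28.6 to 94.3 with a median of 69.2 in MOR-LPS, against 9.95 to 95.5 with a median of 46.8 in SAL-LPS. The ranges overlapped almost in full. It ranked 7.70 to 97.5 with a median of 78.8 in MOR-SAL and 13.5 to 97.1 with a median of 68.7 in SAL-SAL, so the SAL-LPS median was the lowest of the 4. The Bcl6 promoter region (chr16:23987549-23991286) had a peak in 10 of 10 MOR-LPS and 11 of 11 SAL-LPS libraries, with medians of 83.1 and 79.2. The region of Irf2bpl that moved most lies 3888 bp downstream of the TSS, beyond this gene that has a single exon (chr12:86878043-86880910). Its ranks were 5.98 to 65.6 with a median of 13.7 in MOR-LPS, against 12.5 to 85.4 with a median of 47.3 in SAL-LPS. It was one of the 10 lower regions, with 8 of 10 MOR-LPS libraries under 35 points. The Irf2bpl promoter region (chr12:86881063-86884821) had medians of 50.8 in MOR-LPS and 39.7 in SAL-LPS, a difference of 6.45 points that ranged from 2.51 to 12.7 with 1 library left out and was 24.6 in the libraries whose peak names share 1 lane tag, a setting chosen after seeing the data. Of the 10 Irf2bpl regions 4 were higher and 6 lower, and the highest of them, 50144 bp downstream and picked out after its values were seen, differed by 19.1 points. Cd81 has 1 hypothalamus region (chr7:143054418-143060392), a promoter region by a start annotated in GENCODE. It does not reach the Cd81 promoter matched in RefSeq (chr7:143052500-143052799). The region ranked 5.94 to 96.9 with a median of 47.8 in MOR-LPS and 6.15 to 92.1 with a median of 21.7 in SAL-LPS. The MOR-SAL libraries were the tightest group there, at 5.73 to 37.6 with a median of 19.7, against 6.79 to 91.0 with a median of 25.2 in SAL-SAL.

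Of the lipid genes, Slc27a1 has 1 region, its promoter (chr8:71568908-71573966). It ranked 5.94 to 97.8 with a median of 74.4 in MOR-LPS hypothalamus, against 9.95 to 80.3 with a median of 33.2 in SAL-LPS. Of the MOR-LPS libraries 8 were above 55, and of the SAL-LPS libraries 2 were. Female MOR-LPS mice averaged 49.5 points above female SAL-LPS mice, and male MOR-LPS mice 7.46 points above male SAL-LPS mice (6 and 6 females, 4 and 5 males). The difference between the sexes was not tested. In MOR-SAL the Slc27a1 promoter ranked 5.73 to 88.2 with a median of 36.1, against 6.79 to 99.2 with a median of 48.0 in SAL-SAL. Mgll regions went both ways. The Mgll promoter region (chr6:88724035-88730023) ranked 5.94 to 72.1 with a median of 40.5 in MOR-LPS and 5.14 to 50.6 with a median of 21.1 in SAL-LPS. Of the 6 Mgll regions 5 were higher in MOR-LPS. The other, an intron region 61817 bp into Mgll (chr6:88786645-88789691), closer to the start of Abtb1, ranked 5.52 to 88.4 with a median of 21.5 in MOR-LPS and 9.95 to 83.4 with a median of 52.8 in SAL-LPS. There 1 MOR-LPS library was at 88.4 and the other 9 were below 47.

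Of the trafficking genes, the intron region of Sort1 (chr3:108286497-108292432, 2406 bp from the TSS) had a peak in 9 of 10 MOR-LPS libraries, against 2 of 11 SAL-LPS libraries. Peaks were also rare in the saline-challenged groups, with 3 of 12 MOR-SAL and 1 of 8 SAL-SAL libraries. Its ranks were 5.94 to 98.6 with a median of 63.6 in MOR-LPS, against 5.14 to 70.2 with a median of 13.9 in SAL-LPS. Of the SAL-LPS libraries 10 were at or below 25.2, and 1 was at 70.2. The SAL-LPS median lies within the range of hypothalamus ranks without a peak. A region over an exon of Sort1 (chr3:108303684-108309535), named here after its values were seen, ranked 15.6 to 95.2 with a median of 72.5 in MOR-LPS and 6.53 to 90.8 with a median of 21.5 in SAL-LPS. The Sbf1 promoter region (chr15:89308929-89316015) had a peak in 10 of 10 MOR-LPS and 5 of 11 SAL-LPS libraries. It ranked 30.2 to 95.2 with a median of 69.2 in MOR-LPS, against 6.15 to 80.9 with a median of 19.1 in SAL-LPS. The MOR-SAL libraries, at 6.53 to 38.2 with a median of 19.7, were never above 40, while SAL-SAL libraries ranked 6.71 to 91.0 with a median of 25.2. Sbf1 differed by 57.0 points in males and 13.7 in females, the opposite order of sexes to Slc27a1, again with no test. Psd3 has 8 regions, and its intron region 12088 bp from a start (chr8:67801537-67806145) ranked 28.6 to 82.3 with a median of 54.5 in MOR-LPS, against 47.4 to 99.8 with a median of 83.4 in SAL-LPS. The main Psd3 promoter region (chr8:67809104-67820930) had a peak in every hypothalamus library and medians of 92.9 in MOR-LPS and 81.4 in SAL-LPS. Of the 8 Psd3 regions 5 were higher and 3 lower in MOR-LPS, within −22.5 and 10.1 points.

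Olfml2b, which encodes a protein of the extracellular matrix, has 1 hypothalamus region, its promoter (chr1:170643429-170648681). It ranked 5.94 to 89.1 with a median of 63.1 in MOR-LPS, against 6.15 to 62.8 with a median of 19.1 in SAL-LPS. A peak was present in 9 of 10 MOR-LPS and 5 of 11 SAL-LPS libraries. The median was 22.7 in MOR-SAL and 19.8 in SAL-SAL, close to that of SAL-LPS. The difference was 34.3 points in females and 37.8 in males.

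**Figure D1:**
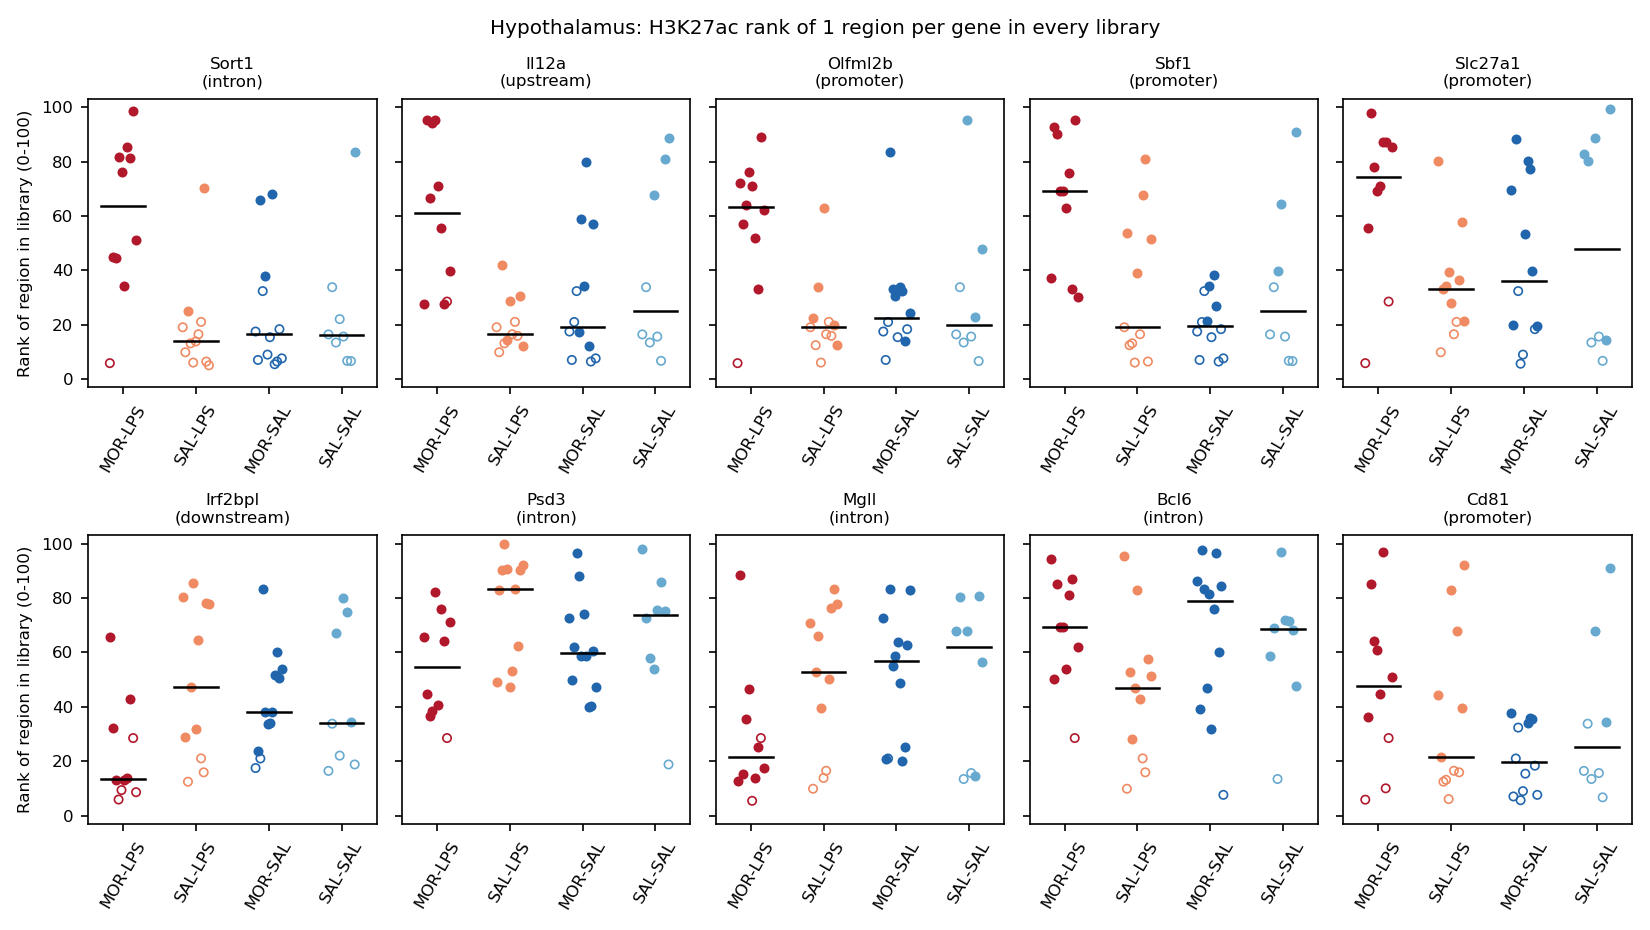
Rank (0 to 100, vertical axis) of 1 region per gene, the one with the largest MOR-LPS minus SAL-LPS difference, in every hypothalamus library of the 4 groups. Filled points had a peak on the region, open points had none, and lines mark medians. At Sort1 the MOR-LPS median is 63.6 and the SAL-LPS median 13.9, the latter within the range of ranks without a peak. The Irf2bpl, Psd3 and Mgll regions are lower in MOR-LPS.

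The comparison of MOR-SAL with SAL-SAL hypothalamus uses no library of the comparison that chose the genes, and asks whether they differed without LPS. None of the 36 member regions was called (limma, adjusted p under 0.05), and the share over all 13788 regions was 0%. At an unadjusted p under 0.05 there were 2 of 36 (5.56%), against 8.04% of all regions. The members split 19 higher and 17 lower in MOR-SAL, with a median of 1.21 points. An intron region of Psd3 had the smallest p, at −19.5 ± 9.21 points (SE) and adjusted p = 0.582. The Il12a promoter differed by −22.1 ± 11.8 points (adjusted p = 0.644). An upstream region of Irf2bpl differed by 23.5 ± 12.2 points (adjusted p = 0.624). With standard errors of this size, differences of about 20 points at single regions were not detectable. At the regions with the widest gaps between MOR-LPS and SAL-LPS the values were 5.93 ± 10.3 at Sort1 and 1.53 ± 10.6 at Olfml2b.

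The remaining hypothalamus comparisons share the MOR-LPS or SAL-LPS libraries and carry no test. SAL-LPS against SAL-SAL gave 15 member regions higher and 21 lower, with a median of −2.57 points, and MOR-LPS against MOR-SAL gave 25 higher and 11 lower, with a median of 5.81. Over all regions these medians were −0.23 and −0.29. The interaction was above 0 in 25 of 36, with a median of 13.1, against −0.04 over all regions.

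In the striatum 3 of the 95 member regions were called higher in MOR-LPS than in SAL-LPS mice and none lower, a share of 3.16%, against 2.32% called in either direction over all 60013 regions. The members' share was therefore close to the background. The 3 regions belong to Il12a, Slc27a1 and Bcl6, and each overlaps the hypothalamus region of that gene described above. At the Il12a upstream region (chr3:68658588-68667547) a peak was present in 7 of 15 MOR-LPS and 1 of 13 SAL-LPS libraries. Its ranks were 13.3 to 99.3 with a median of 42.2 in MOR-LPS, against 18.0 to 90.7 with a median of 30.0 in SAL-LPS. Both medians lie within the range of striatum ranks without a peak, 13.3 to 44.8. The difference was 31.1 ± 8.59 points (SE, limma, adjusted p = 0.0363). The Slc27a1 promoter region (chr8:71568882-71573791) ranked 23.9 to 97.6 with a median of 83.6 in MOR-LPS, against 22.1 to 96.3 with a median of 44.8 in SAL-LPS (31.3 ± 8.69 points, adjusted p = 0.0363). Peaks lay on it in 13 of 15 MOR-LPS and 6 of 13 SAL-LPS libraries. In the saline-challenged mice its median was 84.1 for MOR-SAL and 87.1 for SAL-SAL. Among males the SAL-LPS mean of 65.1 lay between 68.8 in MOR-LPS and 62.3 in MOR-SAL. The Bcl6 intron region (chr16:23980882-23985491) ranked 24.1 to 98.0 with a median of 78.0 in MOR-LPS, against 18.0 to 92.8 with a median of 44.1 in SAL-LPS (31.4 ± 9.43 points, adjusted p = 0.0487). Its median was 70.9 in MOR-SAL and 32.2 in SAL-SAL. In all 3 regions the groups overlapped over most of their range. The study's filter on regions, described below, could admit a region through the group where it was high, and its part in these calls was not tested.

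Several values moved with these calls. Each of the 8 marker promoters of oligodendrocytes, cells without NeuN, had a peak more often in MOR-LPS than in SAL-LPS striatum. The myelin gene Mbp had one in 6 of 15 MOR-LPS and 3 of 13 SAL-LPS libraries and Mog in 5 and 1. Olig1, Olig2 and Sox10 had one in 3, 2 and 3 MOR-LPS libraries and in 0 SAL-LPS libraries. At least 50% of the 8 oligodendrocyte markers had such a peak in 5 MOR-LPS and 1 SAL-LPS libraries. The share of these markers with such a peak was 0 to 100% in MOR-LPS libraries (median 12.5%), against 0 to 50% in SAL-LPS libraries (median 12.5%). With this share as a term in the fit, 0 member regions and 0 of all regions were called, and the difference was 10.8 points at Il12a, 22.7 at Slc27a1 and 24.7 at Bcl6. The Il12a region changed most of the 3 under that term. By sex the Il12a difference was 49.3 points in females and 7.13 in males, the Slc27a1 difference 43.7 and 3.65, and the Bcl6 difference 35.4 and 17.2 (7 MOR-LPS and 10 SAL-LPS females, 8 and 3 males). Whether the sexes differed was not tested. The 3 calls were also lost without the sex term and with lists of equal length. With 1 MOR-LPS or SAL-LPS library left out at a time, Il12a was called in 13, Slc27a1 in 16 and Bcl6 in 9 of 28 fits, with differences of 28.3 to 35.5, 28.9 to 36.0 and 29.4 to 38.1 points.

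Other striatum regions of the members came near the threshold without passing it. A Psd3 promoter region had a difference of 21.2 ± 6.48 points (adjusted p = 0.0511). A Sort1 promoter region differed by 28.6 ± 9.14 points (adjusted p = 0.0612) and a Cd81 promoter region by 24.1 ± 7.98 (0.0706). Another Sort1 promoter region, which overlaps the hypothalamus intron region, was farther from it, at 13.5 ± 8.66 points (limma, adjusted p = 0.370). Another Cd81 region, over the promoter matched in RefSeq, differed by 30.2 points in females and −2.92 in males. The Cd81 region that differed by 24.1 points (chr7:143054458-143060018) does not reach the promoter matched in RefSeq. It had a peak in 7 of 15 MOR-LPS, 2 of 13 SAL-LPS, 0 of 7 MOR-SAL and 3 of 10 SAL-SAL libraries. The Il12a promoter ranked 13.3 to 97.8 with a median of 60.2 in MOR-LPS striatum, against 18.0 to 90.7 with a median of 32.1 in SAL-LPS (adjusted p = 0.0821). In all, 53 member regions were higher and 42 lower, with a median of 0.98 points, against −1.47 over all regions. Of the 16 member promoter regions in the striatum 16 were higher in MOR-LPS, with a median of 17.1 points. Over all 12180 promoter regions 71.1% were higher, with a median of 6.67, and over the regions away from promoters 38.2%, with a median of −3.07. These shares describe the members and were not tested. MOR-LPS striatum libraries held 14178 to 109977 peaks (median 65569) and SAL-LPS libraries 10811 to 86094 (median 54471). With the number of peaks as a term in the fit, 5 member regions were called. The differences were then 31.9 points at the Il12a upstream region, 27.2 at the Slc27a1 promoter and 31.6 at the Bcl6 intron region. The part of the peak number in the promoter shares was not tested.

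**Figure D2:**
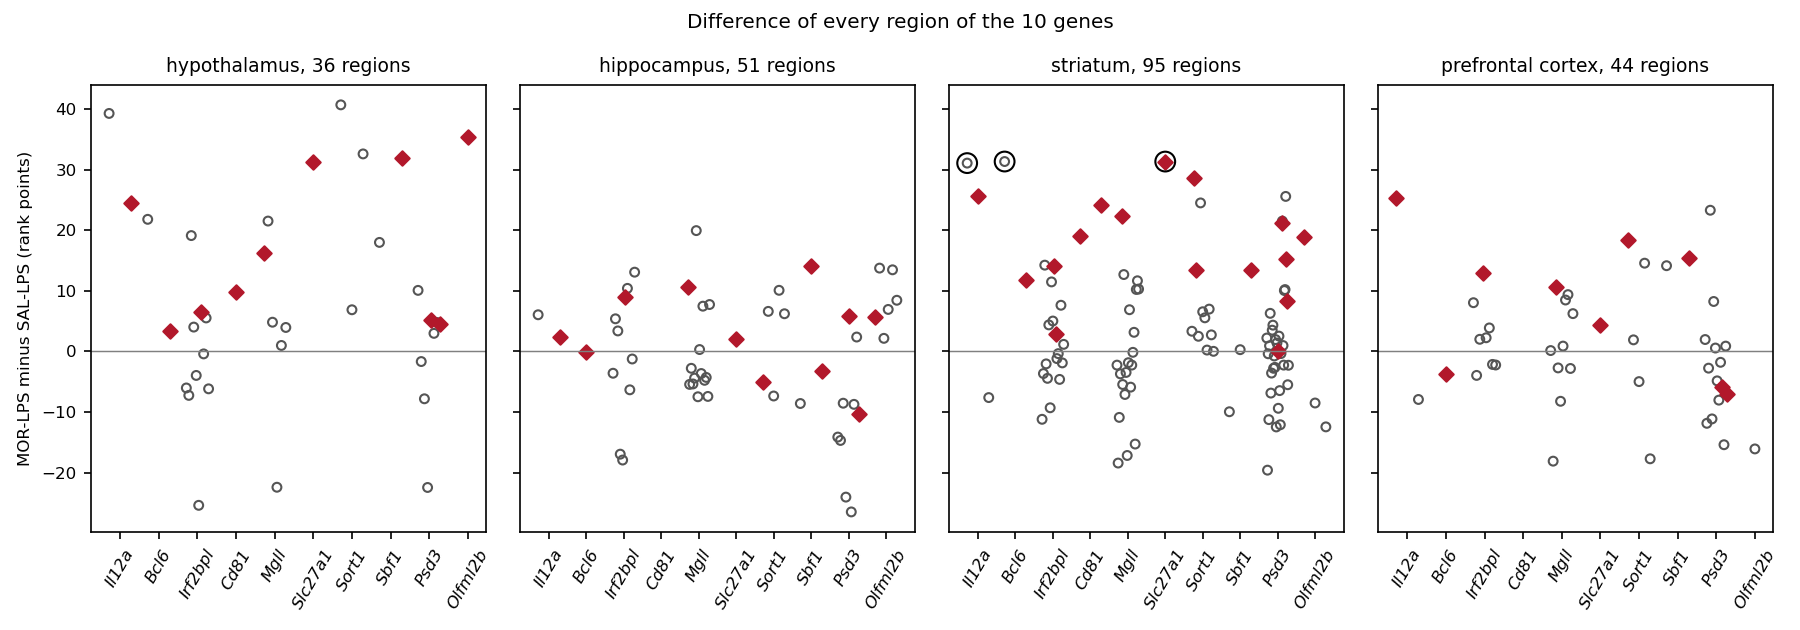
MOR-LPS minus SAL-LPS difference in rank points (vertical axis) of every region of the 10 genes, by gene (horizontal axis) and brain region. Red diamonds are promoter regions, open circles the other regions, and black rings the 3 regions called in the striatum; the hypothalamus values chose the genes, and they reach 40.7 points, against 31.4 in the striatum.

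In the hippocampus no member region was called in any of the 5 comparisons (limma). The share called over all 16201 regions was 0% for MOR-LPS against SAL-LPS, 0.00617% (1 region) for MOR-SAL against SAL-SAL, 0% for SAL-LPS against SAL-SAL, 0% for MOR-LPS against MOR-SAL and 0.00617% for the interaction. At an unadjusted p under 0.05 the members numbered 3, 6, 4, 4 and 2 of 51 in these comparisons, beside 7.56%, 5.64%, 9.59%, 6.09% and 5.66% of all regions. MOR-LPS against SAL-LPS split them 25 higher and 26 lower, with a median of −0.17 points. The smallest p was at an Mgll region over an exon in SAL-LPS against SAL-SAL, 27.1 ± 8.60 points (adjusted p = 0.249). A Psd3 intron region differed by −31.8 ± 10.4 points between MOR-SAL and SAL-SAL (adjusted p = 0.653). The hippocampus region that overlaps the Psd3 intron region of the hypothalamus, picked for that overlap, had a difference of −24.1 ± 10.2 points (adjusted p = 0.609), and medians of 15.9 in MOR-LPS and 44.2 in SAL-LPS. The Il12a promoter had a peak in 9 of 10 MOR-LPS and 10 of 12 SAL-LPS hippocampus libraries, and the medians were 65.6 and 58.5.

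In PFC no member region was called in any of the 5 comparisons (limma), and 0% of all 18272 regions were. Unadjusted p under 0.05 was reached by 5, 1, 2, 3 and 4 of 44 member regions, with the comparisons in the same order, beside 11.3%, 2.96%, 6.54%, 7.81% and 7.07% of all regions. The Il12a promoter region (chr3:68692050-68694996) ranked 3.71 to 78.3 with a median of 49.3 in MOR-LPS PFC, against 2.81 to 95.7 with a median of 16.0 in SAL-LPS (25.3 ± 9.85 points, adjusted p = 0.268). A region 50370 bp downstream of Il12a differed most, by −30.8 ± 7.92 points between MOR-LPS and MOR-SAL (adjusted p = 0.214). A Sort1 intron region was 19.6 ± 6.42 points higher in MOR-LPS than in MOR-SAL (adjusted p = 0.399).

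The other 4 striatum comparisons called no member region. Over all regions the share called was 0.00667% for MOR-SAL against SAL-SAL, 0% for SAL-LPS against SAL-SAL, 0.253% for MOR-LPS against MOR-SAL and 0.0167% for the interaction. Members with an unadjusted p under 0.05 numbered 5, 4, 18 and 15 of 95, beside 5.57%, 5.10%, 17.3% and 14.5% of all regions. A Sort1 promoter region (chr3:108280241-108283987) came nearest, 38.8 ± 10.7 points higher in MOR-LPS than in MOR-SAL (adjusted p = 0.0674). The Il12a upstream interaction was 42.1 ± 13.8 points (adjusted p = 0.179). An exact test by sex on the presence of a peak among the strongest 10000, run on the named regions in 13 comparisons, gave 0 of 228 adjusted p-values and 11 unadjusted p-values under 0.05, of which 5 were in striatum MOR-LPS against SAL-LPS. Those 5 were promoters of Olfml2b, Psd3, Slc27a1 and Sort1 and the Il12a upstream region.

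The regions of the other brain regions that overlap the 10 hypothalamus regions in the plot of hypothalamus ranks were chosen by that overlap after the values were known. In the striatum 10 such regions, 1 for each gene, were all higher in MOR-LPS than in SAL-LPS, by 1.40 to 31.4 points. That includes the regions of Irf2bpl (5.02 ± 9.25), Psd3 (1.40 ± 4.79) and Mgll (3.16 ± 7.64), which were lower in the hypothalamus. In the hippocampus 3 of 7 were higher, within −24.1 to 8.91 points, and in PFC 4 of 6, within −8.04 to 18.3. The Sbf1 promoter differed by −3.23 ± 5.61 points in the hippocampus, 13.4 ± 6.79 in the striatum and 15.5 ± 8.21 in PFC. The Slc27a1 promoter differed by 2.01 ± 10.9 points in the hippocampus and 4.39 ± 9.27 in PFC. The animals are shared in part, since 7 of 15 MOR-LPS and 7 of 13 SAL-LPS striatum libraries come from animals with a hypothalamus library. In the other striatum animals (8 MOR-LPS and 6 SAL-LPS) the differences were 12.5 points at Il12a, 12.3 at Slc27a1 and 22.5 at Bcl6, with 0 of 95 regions called.

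**Figure D3:**
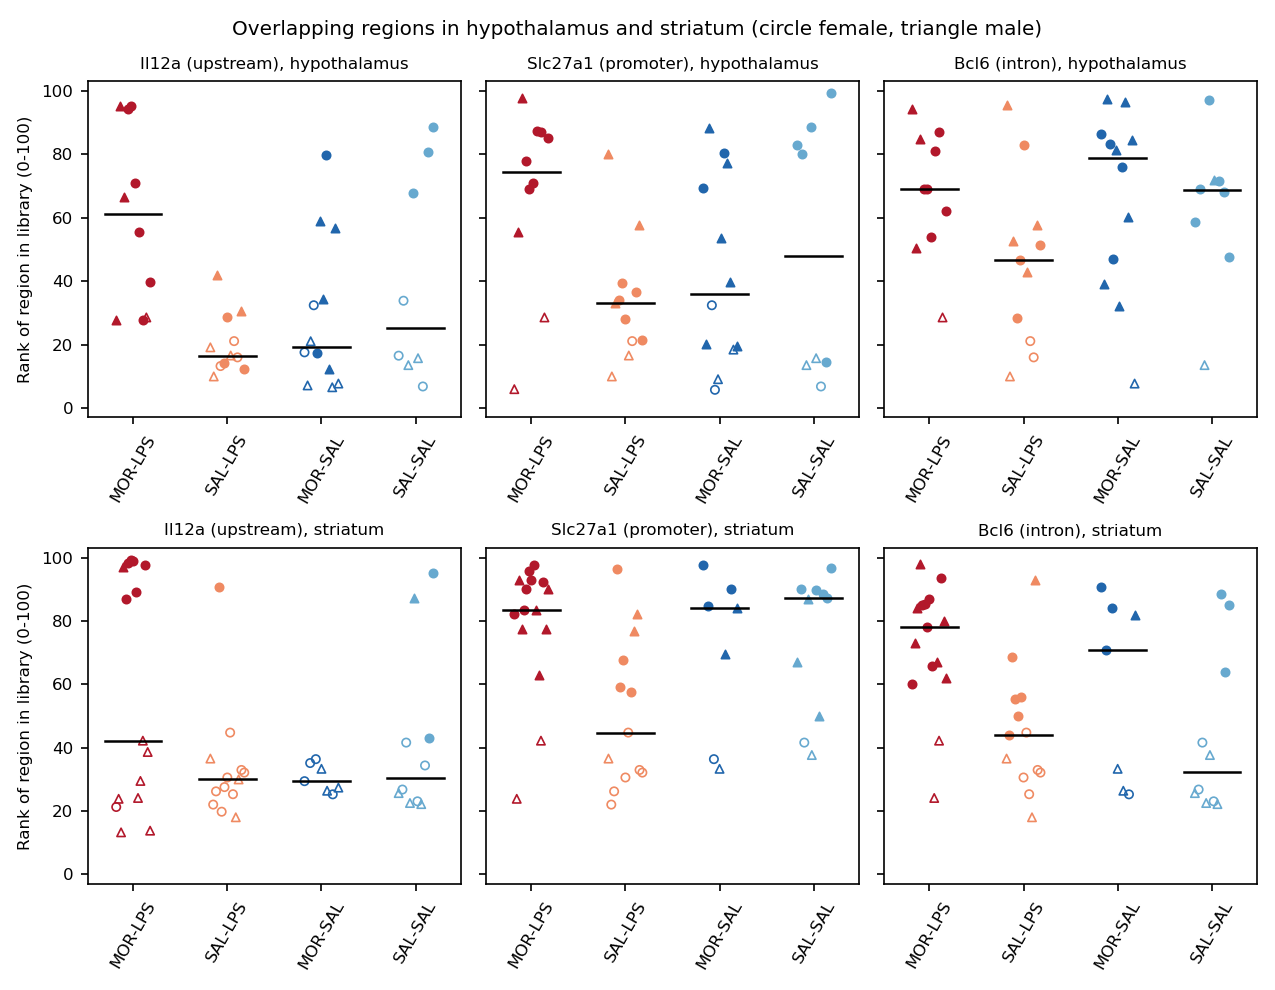
Rank (0 to 100, vertical axis) of the Il12a upstream, Slc27a1 promoter and Bcl6 intron regions in every hypothalamus (top) and striatum (bottom) library of the 4 groups. Circles are females and triangles males, filled points had a peak, and lines mark medians; in the striatum the Il12a region has a peak in 7 of 15 MOR-LPS and 1 of 13 SAL-LPS libraries.

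Levels between brain regions were compared on promoters (1 kb either side of a TSS), ranked over all 21829 protein-coding genes of a library. The libraries of the comparison that chose the genes enter here too. Psd3 was the highest member everywhere, with medians of 97.5 in the hypothalamus, 96.9 in the hippocampus, 97.1 in the striatum and 97.8 in PFC, and none of its 6 pairwise differences passed. Bcl6 had medians of 92.6, 89.0, 91.7 and 91.1 in the same order and none called. Il12a was the lowest member in PFC and the striatum, with a promoter peak in 13 of 41 hypothalamus, 24 of 44 hippocampus, 5 of 45 striatum and 8 of 42 PFC libraries.

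Between hypothalamus and hippocampus 5 of the 10 promoters were called, all lower in the hypothalamus, where 14.9% of all promoters were called in either direction. The Sbf1 promoter ranked 25.3 to 97.7 with a median of 36.9 in the hypothalamus, against 36.9 to 100 with a median of 93.9 in the hippocampus, and differed by −38.0 ± 4.38 points (SE, adjusted p = 2.15e-13). It had a peak in 14 of 41 hypothalamus and 38 of 44 hippocampus libraries. The Olfml2b promoter ranked 29.5 to 97.4 with a median of 64.6 in the hypothalamus, against 33.7 to 99.8 with a median of 89.8 in the hippocampus (−25.4 ± 4.35 points, adjusted p = 8.26e-07). Mgll (−19.6 ± 4.00), Irf2bpl (−18.6 ± 4.38) and Slc27a1 (−14.0 ± 4.10) were the others, with adjusted p up to 0.00826. Cd81, Psd3 and Bcl6 differed by 5.41 ± 4.47, 3.05 ± 1.94 and 2.68 ± 3.41 points and did not pass. Striatum against hippocampus gave 6 lower calls in the striatum, where 11.6% of all promoters were called. They were Sbf1 (−37.2 ± 4.30), Olfml2b (−35.0 ± 4.27), Il12a (−22.5 ± 4.54), Irf2bpl (−14.7 ± 4.30), Mgll (−13.3 ± 3.93) and Slc27a1 (−12.5 ± 4.03). Between hypothalamus and striatum 0 of 10 were called (limma), with 9.51% of all promoters called and 2 members at an unadjusted p under 0.05, Il12a (11.0 ± 4.62) and Olfml2b (9.54 ± 4.35). The median rank of Sbf1, Olfml2b, Irf2bpl, Slc27a1 and Il12a was highest in the hippocampus among the 4 brain regions.

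PFC libraries were made with another library kit than those of the other brain regions, which cannot be told apart from the tissue in these pairs, and most promoters were called against PFC. Of the members, hypothalamus against PFC gave 1 higher (Il12a, 11.9 ± 4.67 points) and 3 lower (Mgll, −26.6 ± 4.05, Sort1, −13.9 ± 4.52, and Slc27a1, −11.7 ± 4.15), where 63.4% of all promoters were called. Hippocampus against PFC gave 4 higher, of which Olfml2b at 34.7 ± 4.33 points was the largest, where 59.9% of all were called. Striatum against PFC gave 2 lower (Mgll, −20.3 ± 3.95, and Slc27a1, −10.3 ± 4.05), where 59.3% of all were called. The Mgll promoter had a peak in 19 of 41 hypothalamus, 35 of 44 hippocampus, 26 of 45 striatum and 40 of 42 PFC libraries.

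**Figure D4:**
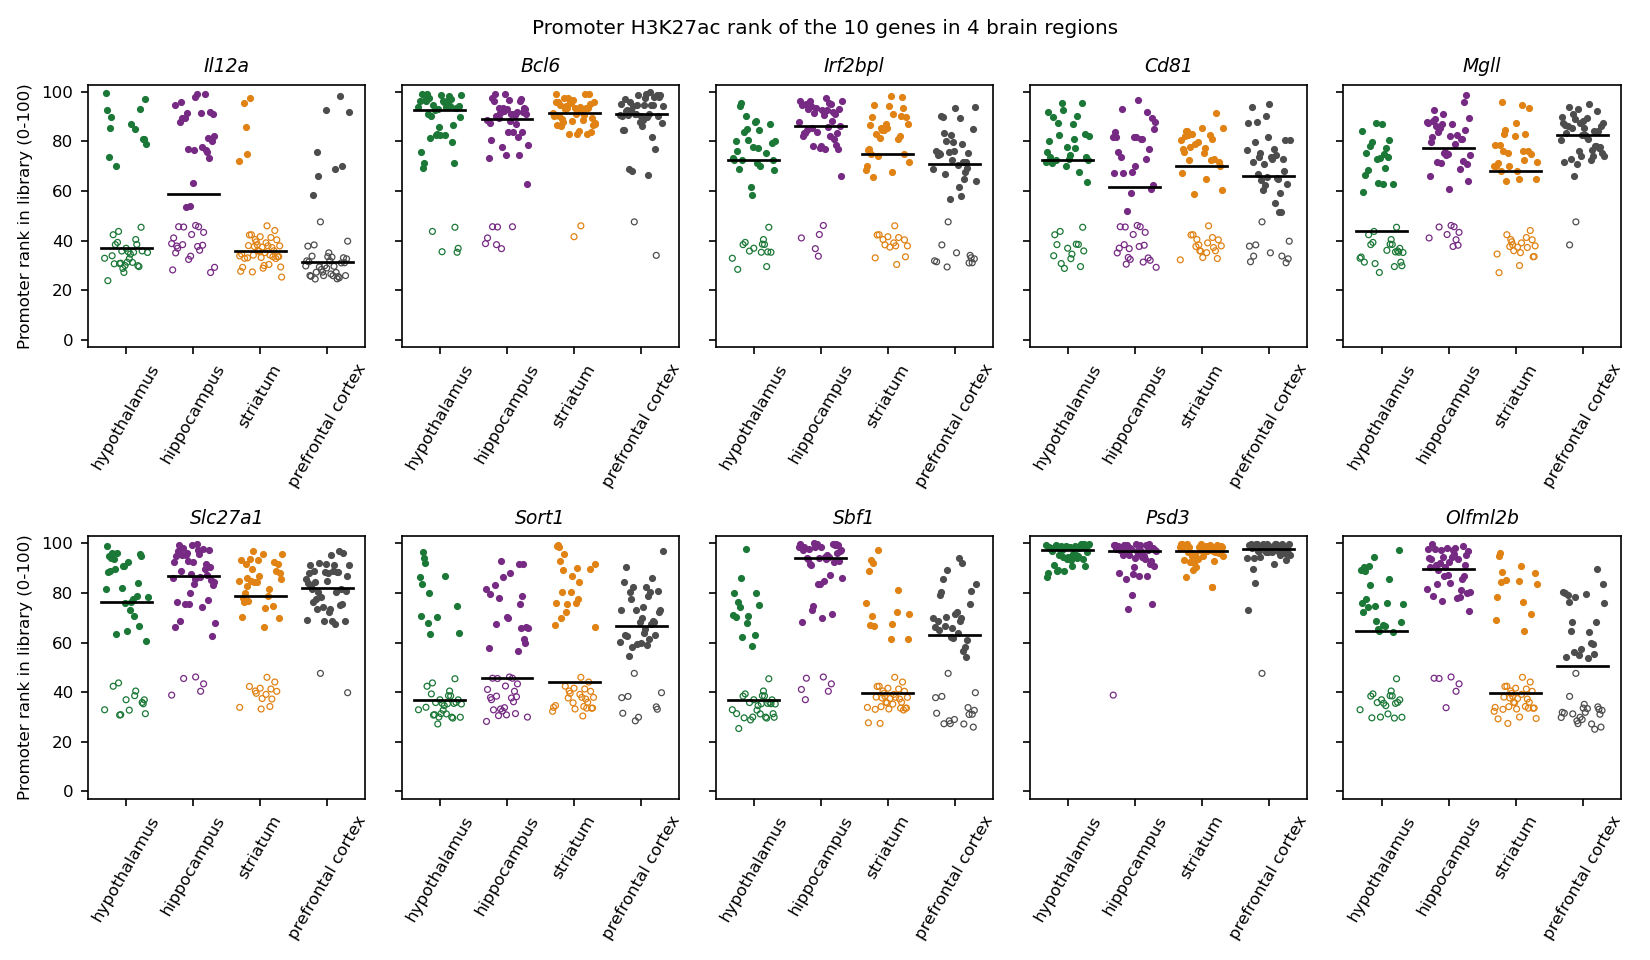
Promoter rank (0 to 100 over all protein-coding genes of a library, vertical axis) of the 10 genes in every library of the 4 brain regions. Filled points had a promoter peak, open points had none and share the lower ranks, and lines mark medians; Psd3 lies near 97 in each brain region, and Sbf1 has medians of 36.9 in the hypothalamus and 93.9 in the hippocampus.

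Genes related to the members, 72 in 10 families or pathways, were followed in the same fits. In the hypothalamus none of their 86 regions was called in MOR-SAL against SAL-SAL. In the hippocampus and PFC none of 95 and 76 was called in any comparison. In the striatum 7 of 298 were called higher and 1 lower in MOR-LPS than in SAL-LPS, beside the 2.32% of all regions given above, and none in the other comparisons. The 3 higher regions of smallest p belonged to the ARF6 exchange factor Cyth1 (33.6 ± 8.37 points, adjusted p = 0.0312), to Napepld, an enzyme of anandamide synthesis (27.1 ± 6.93 points, adjusted p = 0.0327), and to Il27, a cytokine of the interleukin 12 family (28.1 ± 7.19 points, adjusted p = 0.0327). The lower one belonged to Cyth3, also an ARF6 exchange factor (−32.0 ± 9.16 points, adjusted p = 0.0407).

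The regions of the members were wider than most. In the hypothalamus their median width was 5068 bp, against 3675 bp over all regions, and a peak lay on them in a median of 81.7% of libraries, against 75.6%. In the same brain region 10 of the 36 were promoters (27.8%, against 33.4% of all), 13 were intronic, 2 overlapped an exon, 4 were upstream and 7 downstream. Of the 36, 26 overlapped a consensus region of each other brain region. Of the member regions outside the gene bodies, the farthest from its TSS was 65163 bp away in the hypothalamus (Irf2bpl) and 86449 bp in the striatum (Olfml2b). The nearest region left out by the 100 kb limit was 107039 bp from Olfml2b in the hippocampus and 136225 bp from Psd3 in the striatum. Psd3 had 33 of the 95 striatum regions, and Cd81 had 0 regions in the hippocampus and PFC.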

How the data were processed

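H3K27ac was profiled by MOWChIP-seq in NeuN+ nuclei (10000 per library) of 4 brain regions. Per the study's methods and the submitters' processing notes, reads were trimmed (Trim Galore 0.6.7), aligned to mm10 (Bowtie2 2.4.5) and called against input per library with MACS2 2.2.7.1 at q 0.05. DiffBind 3.10.1 made the consensus regions. The study then kept a region if most samples of any single condition had enough reads on it. A region could thus enter the tested set through the group where it was high. The narrowPeak lists as deposited give fold enrichment over input as a ratio, −log10 p and −log10 q from MACS2, and a score derived from −log10 q by the authors' peak caller. Read counts per region were not used here, so the total count and depth of each library are unknown, and no counting interval is given.

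For each consensus region the highest −log10 p of overlapping peaks (at least 1 bp) was turned into a percentile rank within the library. One limma 3.58.1 model (R 4.3.3) per brain region, with treatment group and sex, a mean-variance trend and Benjamini-Hochberg adjustment over all regions, gave 16 tested comparisons. The interaction is the MOR-LPS minus SAL-LPS difference less the MOR-SAL minus SAL-SAL difference. Promoters were compared over 6 pairs of brain regions with animal as a block. Named regions were drawn from each gene's promoter regions, its region of smallest p in each brain region and its hypothalamus region of largest MOR-LPS minus SAL-LPS difference. Not all of these are given in the text. Regions named on other grounds are marked as such. Of the related genes, at most 3 called per direction are given. The test was tried on simulated data. Libraries with under 10000 peaks were left out, and 32 input libraries were not used. Alternatives were lists of equal length, other scores and overlaps, terms for number of peaks, litter, sex and cell type markers, a filter on regions, and libraries left out. The genes, the lists of relatives and markers, and the tests were chosen with earlier results of these data known. Litter did not pair the libraries: the median correlation of same-litter deviations was −0.087 in the hypothalamus and −0.033 in the striatum.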

Additional observations from a re-analysis of the deposited data

Results flagged for a closer look

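Among the named regions, 128 groups of 4 to 10 libraries were screened for a library far from the rest (Dixon's ratio), and 16 held one. For normally distributed values chance gives about 1 in 20 groups. Libraries without a peak share a floor of ranks, so that rate cannot be set against these groups, and no excess is claimed. In each case the value of the library and that of the nearest other are given as ranks.

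The SAL-SAL animal 9-4 had 6 of them. In the hypothalamus it ranked 83.5 at the Sort1 intron region and 91.1 at the Mgll promoter (next 33.8 at both, the highest hypothalamus rank without a peak). In PFC it ranked 88.8 at the Il12a promoter (next 32.5) and 95.1 at the Sort1 promoter (51.5). In the striatum it ranked 81.1 both at a Cd81 promoter region (next 45.9) and at a Psd3 promoter (41.6). Another SAL-SAL animal ranked 95.1 at the Olfml2b promoter in the hypothalamus (next 47.7), and another 60.7 at a second Psd3 promoter in the striatum (41.6).

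In MOR-LPS hypothalamus 1 library ranked 88.4 at the Mgll intron region (next 46.6), and 1 was the lowest at the main Psd3 promoter with 47.5 (76.0). In MOR-SAL PFC the lowest library at the Psd3 promoter was at 49.8 (next 90.5). That library had 11306 peaks, the fewest in PFC, and 49.8 is its rank for regions without a peak.

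In MOR-SAL striatum animal 17-4 was lowest at the Irf2bpl promoter with 26.4 (next 77.8) and highest at the Sbf1 downstream region with 60.9 (36.4). Animal 17-0 was lowest at a Psd3 promoter with 33.3 (next 75.3) and highest at another with 82.1 (36.4). Animal 16-1 was highest at the Il12a promoter with 74.4 (next 35.2).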

How the results depend on the processing

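The hypothalamus differences between MOR-LPS and SAL-LPS chose the genes, so their range over the alternatives is a description. Il12a upstream ranged over 30.2 to 40.1 points, Sort1 over 30.5 to 65.1, Olfml2b over 30.8 to 42.7, Irf2bpl over −34.0 to −16.6 and Bcl6 over 9.11 to 23.1. The count of striatum calls, 3 in the report, was 0 with lists of equal length, 0 without the sex term, 0 with the astrocyte share, 0 with the oligodendrocyte share, 0 for regions with a peak in 50% of libraries (46 of 95 tested, without the Il12a upstream region, which had a peak in 24.4%) and 0 in animals with no hypothalamus library. That last setting, the style of peak names, the striatum libraries left out in turn and the PFC library left out were chosen after seeing the data. It was 1 with the neuron share, 5 with the number of peaks as a term, and 0 to 8 with 1 library left out, where 0 to 3410 of all regions were called. Without the MOR-LPS animal 12-2 it was 8. With the astrocyte share, 4 regions were called in striatum MOR-LPS against MOR-SAL, where the main count was 0. The cause was not tested.

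With litter as a replicate block the striatum count stayed at 3 and no other member count changed. Same-litter libraries did not deviate together, so this is no paired design. MOR and SAL mice came from different litters, so litter and perinatal treatment cannot be told apart in comparisons between them.

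Some differences between MOR-LPS and SAL-LPS in the overlapping regions, each of them short of the threshold, changed sign. In animals with no hypothalamus library Olfml2b became −3.69 in the striatum. In the hippocampus Sbf1 became 14.1, Slc27a1 −15.4, Irf2bpl −6.86 and Mgll 16.4, and in PFC Slc27a1 became −7.74 and Mgll 14.4. Sbf1 in the hippocampus was 0.679 with the style of peak names as a term. Irf2bpl in PFC was −0.170 with fold enrichment as the score, −1.68 with the number of peaks and −1.84 without the MOR-LPS animal 12-2, whose peak names carry another animal number. With lists of equal length Psd3 in the striatum was −8.53 and Mgll in PFC 1.55, and Mgll was 0.557 with the oligodendrocyte share. As percentage points of libraries with a peak among the strongest 10000, Slc27a1 in the hippocampus was −11.7 and Psd3 in the striatum −15.9.

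Promoter calls depended on list length. With the strongest 10000 peaks of each library the counts were 3 between hypothalamus and hippocampus, 2 between striatum and hippocampus, 1 between hypothalamus and PFC, 7 between hippocampus and PFC and 1 between striatum and PFC. The last was also 1 with the number of peaks as a term, and Sort1 in hypothalamus against PFC became 1.02.

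The deposited peaks cut off signal under the q threshold, so a region without a peak has no measured level, and its rank depends on the length of the list.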
